A study of Mus musculus with 9 samples.

Results

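The Fc gamma receptors, the receptor Trem2, and adaptors and a kinase of their signalling were examined as 8 genes. These were the receptors Fcgr1, Fcgr2b, Fcgr3 and Fcgr4, the adaptors Fcer1g and Tyrobp, Trem2 and the kinase Syk. The genes were chosen by symbol, with earlier results of these data known. Every probe set that the array annotation assigns to one of them was taken. That gave 17 of the 45101 probe sets of the array and 8 of the 18193 genes tested. Fcgr3, Fcgr4, Fcer1g and Tyrobp, 4 genes in all, have 1 probe set each.

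Fc gamma receptors bind the constant part of immunoglobulin G and let myeloid cells take up or react to antibody-coated particles. Their activating forms carry little signalling sequence of their own and pair with the γ chain encoded by Fcer1g, whose immunoreceptor tyrosine-based activation motif (ITAM) is phosphorylated by Src-family kinases and then recruits Syk. Tyrobp encodes DAP12, an ITAM adaptor that serves Trem2 and many other myeloid receptors in the same way. Fcgr2b is the inhibitory member of the family and carries an inhibitory motif (ITIM) that recruits lipid and protein phosphatases.

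The RNA came from non-adherent cells collected after 3 days of culture, begun with LSK cells (bone marrow cells without lineage markers that carry Sca-1 and c-Kit, a population that contains the hematopoietic stem cells) of wild-type C57/Bl6 mice. One group of 3 arrays, OP9-DL1+CompoundE, was grown with 1 µM Compound E, an inhibitor of the γ-secretase that releases the active part of Notch, on OP9 stromal cells that express the Notch ligand Delta-like 1. The OP9-DL1 group, with 3 arrays, had that feeder without the inhibitor, and the OP9-GFP group, with 3 arrays, had the control feeder. The labels name no vehicle for the inhibitor, say nothing on the transgene's promoter or clonality of the feeders, and do not say whether replicates came from separate mice or cultures. The p-values therefore rest on the spread among these arrays alone, and that spread may be technical.

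Levels are the authors' log2 values, in which a difference of 1 is a 2-fold difference. Probe sets for bacterial control transcripts had values of up to 3.64, and this level and below is called background. All 8 genes lay above it on every array by their brightest probe set, which stands for the gene below. The array medians lay between 4.78 and 4.94, and the number of arrays limits the precision. Of the LSK list, 10 of 12 genes were measured and none was at background in every group, but Ly6a, which encodes Sca-1, was not measured here. Because mixed harvested cells were measured, more cells of a type and more RNA per cell cannot be told apart in any of these values.

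All 8 genes were lower in OP9-DL1 cultures than in OP9-GFP cultures, and all 8 were higher in OP9-DL1+CompoundE cultures than in OP9-DL1 cultures. By their brightest probe set, Fcgr1 and Trem2 differed by more than 10 times on the linear scale in both comparisons, and by less when their probe sets were averaged. The other 6 genes differed by 1.21 to 1.79 times between OP9-DL1 and OP9-GFP. In limma, with Benjamini-Hochberg adjustment over all genes and a threshold of 0.05, 8 of 8 were called lower on OP9-DL1 than on OP9-GFP, where 16.7% of all genes were called lower. With Compound E, 8 of 8 were called higher than on OP9-DL1, where 25.1% of all genes were called higher. Because the 8 were chosen with earlier results of these data known, the shares over all genes, here and below, are a description and not a test. The 3 arrays of each group did not overlap for any of the 8 in either comparison, which was true of 23% of all genes in the downward direction for the first and of 29.3% in the upward direction for the second. The median log2 difference over the 8 was -0.64 for OP9-DL1 minus OP9-GFP and 1.06 for OP9-DL1+CompoundE minus OP9-DL1, and over all genes tested it was -0.02 and 0.08. Centring the arrays on their medians moved the all-gene median of the second difference by 0.13 (log2). The share of higher among called genes in that comparison was then 73.7%, against 53.8% as deposited, and all 8 calls held in both comparisons.

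**Figure D1:**
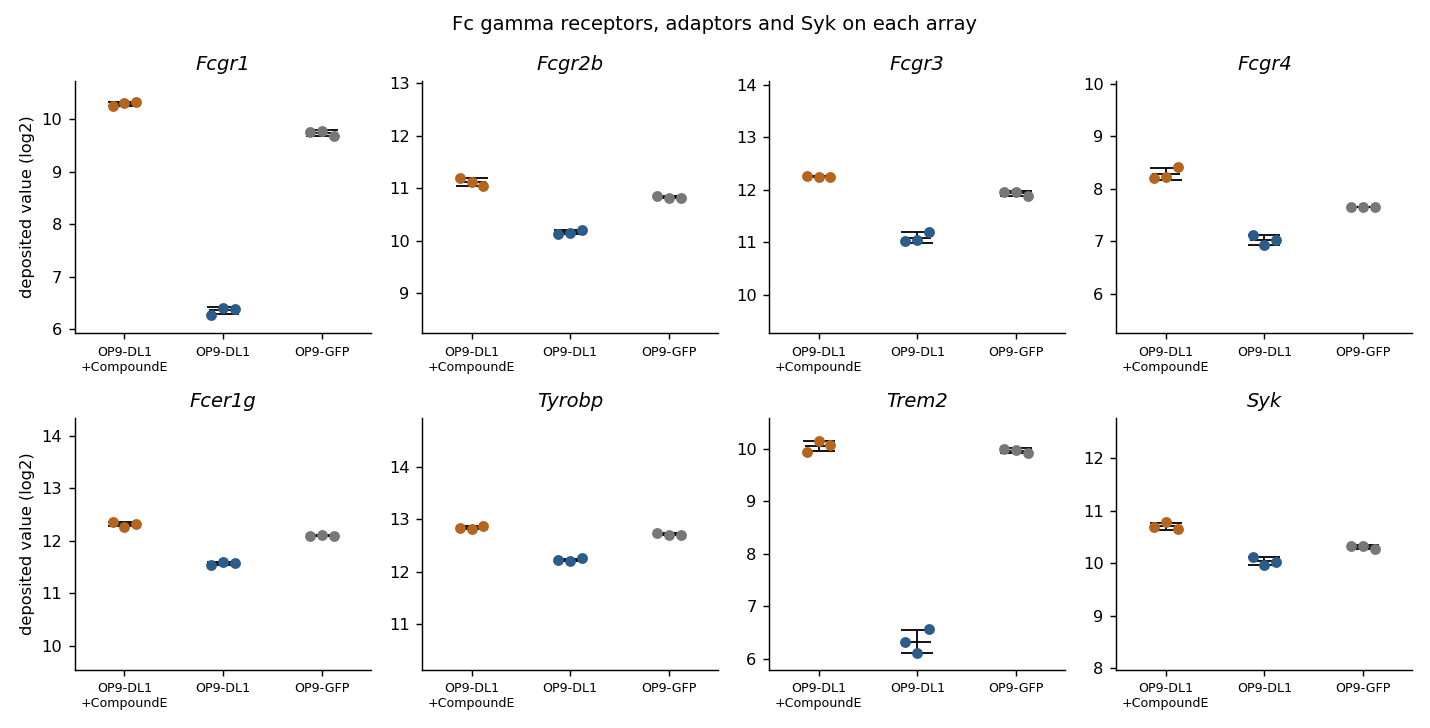
Levels of the 8 genes on each of the 9 arrays, as log2 values of the brightest probe set, with groups along the horizontal axis in the order OP9-DL1+CompoundE, OP9-DL1, OP9-GFP. Each point is an array, the central horizontal mark is the mean of the 3 arrays, and the capped vertical line is their SD. OP9-DL1 arrays are the lowest for every gene, and the gap is widest for Fcgr1 and Trem2.

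Fcgr1 encodes the high-affinity receptor for immunoglobulin G, found mainly on monocytes and macrophages. Its levels were 10.25, 10.31 and 10.33 on the OP9-DL1+CompoundE arrays, 6.28, 6.41 and 6.39 on the OP9-DL1 arrays, and 9.76, 9.78 and 9.68 on the OP9-GFP arrays (log2). The OP9-DL1 arrays lay far below both other groups, and no groups overlapped. Fcgr1 was 10.4-fold lower on OP9-DL1 than on OP9-GFP, a log2 difference of -3.38 ± 0.07 (SE, limma adjusted p = 4.68e-15), and only 16 of the genes tested had a more negative difference. It was 15.3-fold higher with Compound E than on OP9-DL1, a log2 difference of 3.94 ± 0.07 (SE, limma adjusted p = 5.85e-16), and 11 genes had a larger positive one. When its 2 probe sets were averaged, these differences were -2.68 and 3.33 (log2), still called.

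Fcgr3 encodes the low-affinity activating receptor of mouse macrophages, neutrophils, mast cells and natural killer cells. Its levels were 12.27, 12.25 and 12.25 on OP9-DL1+CompoundE, 11.02, 11.04 and 11.20 on OP9-DL1, and 11.96, 11.95 and 11.88 on OP9-GFP (log2). The groups were again fully separated, with OP9-DL1 lowest. The log2 difference was -0.84 ± 0.05 (SE) between OP9-DL1 and OP9-GFP (limma adjusted p = 6.54e-10) and 1.17 ± 0.05 between OP9-DL1+CompoundE and OP9-DL1 (limma adjusted p = 7.39e-12), which correspond to 1.79-fold lower and 2.25-fold higher.

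Fcgr4, the activating receptor for certain immunoglobulin G subclasses on mouse monocytes, macrophages and neutrophils, was separated in the same order. It stood at 8.21, 8.22 and 8.41 on OP9-DL1+CompoundE, 7.12, 6.94 and 7.03 on OP9-DL1, and 7.65 on all 3 OP9-GFP arrays (log2). The OP9-GFP values were identical, so the spread of that group is not measured for this gene and its p-values may be too small. The log2 difference was -0.62 ± 0.09 (SE, limma adjusted p = 2.96e-05) for OP9-DL1 minus OP9-GFP. With Compound E the gene was 2.38-fold higher than on OP9-DL1, a log2 difference of 1.25 ± 0.09 (SE, limma adjusted p = 5.04e-09).

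Fcgr2b, the inhibitory receptor of B cells and myeloid cells, moved in the same direction as the activating receptors. Its levels were 11.19, 11.12 and 11.05 on OP9-DL1+CompoundE, 10.13, 10.15 and 10.21 on OP9-DL1, and 10.85, 10.81 and 10.82 on OP9-GFP (log2). No groups overlapped. OP9-DL1 was 1.59-fold below OP9-GFP, with a log2 difference of -0.67 ± 0.05 (SE, limma adjusted p = 1.37e-08), and Compound E was 1.94-fold above OP9-DL1, with a log2 difference of 0.96 ± 0.05 (SE, limma adjusted p = 1.01e-10).

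The ITAM adaptors Fcer1g, which pairs with activating Fc gamma receptors, and Tyrobp, which serves Trem2 and other receptors, were lower on OP9-DL1 as well. Fcer1g stood at 12.35, 12.27 and 12.33 on OP9-DL1+CompoundE, 11.54, 11.60 and 11.57 on OP9-DL1, and 12.09, 12.11 and 12.09 on OP9-GFP, where 2 arrays held exactly the same value (log2). Tyrobp stood at 12.84, 12.81 and 12.87 on OP9-DL1+CompoundE, 12.22, 12.21 and 12.25 on OP9-DL1, and 12.74, 12.70 and 12.70 on OP9-GFP (log2). OP9-DL1 arrays were the lowest for both genes, without overlap. Fcer1g differed by -0.53 ± 0.04 between OP9-DL1 and OP9-GFP and by 0.74 ± 0.04 between OP9-DL1+CompoundE and OP9-DL1 (log2, SE, limma adjusted p = 1.2e-08 and 1.06e-10). For Tyrobp the same differences were -0.48 ± 0.03 and 0.61 ± 0.03 (log2, SE, limma adjusted p = 1.05e-08 and 3.71e-10), or 1.40-fold lower and 1.53-fold higher.

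Trem2 encodes a lipid- and lipoprotein-binding receptor of macrophages, osteoclasts and microglia that signals through Tyrobp. Its levels were 9.95, 10.16 and 10.07 on OP9-DL1+CompoundE, 6.32, 6.11 and 6.56 on OP9-DL1, and 10.01, 9.99 and 9.91 on OP9-GFP (log2). The OP9-DL1 arrays stood apart and the other groups overlapped each other. Trem2 was 12.4-fold lower on OP9-DL1 than on OP9-GFP, a log2 difference of -3.64 ± 0.10 (SE, limma adjusted p = 8.13e-14), with 10 genes showing a more negative one. It was 13.2-fold higher with Compound E than on OP9-DL1, a log2 difference of 3.72 ± 0.10 (SE, limma adjusted p = 2.80e-14), with 16 genes showing a larger positive one. When its 2 probe sets were averaged, these differences were -1.79 and 2.11 (log2), still called.

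Syk, the kinase that binds phosphorylated ITAMs through its SH2 domains, had the smallest difference of the 8 between OP9-DL1 and OP9-GFP. It stood at 10.68, 10.78 and 10.65 on OP9-DL1+CompoundE, 10.11, 9.96 and 10.03 on OP9-DL1, and 10.33, 10.33 and 10.27 on OP9-GFP, where 2 arrays held the same value (log2). The groups did not overlap. The log2 difference was -0.27 ± 0.05 (SE, limma adjusted p = 0.000816) for OP9-DL1 minus OP9-GFP and 0.67 ± 0.05 (SE, limma adjusted p = 3.24e-08) for OP9-DL1+CompoundE minus OP9-DL1.

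**Figure D2:**
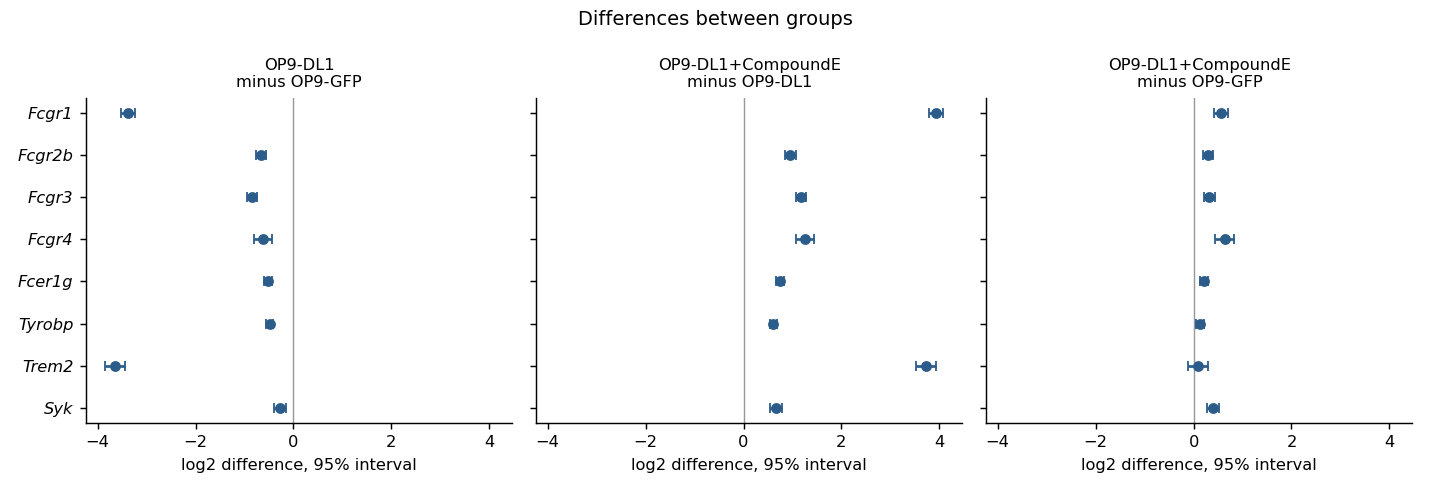
Log2 difference of each of the 8 genes in the 3 comparisons, with the 95% interval from limma (horizontal lines). Fcgr1 and Trem2 lie beyond -3 for OP9-DL1 minus OP9-GFP and beyond 3 for OP9-DL1+CompoundE minus OP9-DL1, and in the third comparison all 8 lie between 0.09 and 0.63.

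Cultures with Compound E were then set against the control feeder, which asks where inhibited cultures stand when the ligand is present. In that comparison 7 of 8 genes were called higher, where 12.1% of all genes were called higher, and the same 7 did not overlap between the groups, as was the case upward for 19.8% of all genes. Fcgr4 was 1.55-fold higher, with a log2 difference of 0.63 (95% interval 0.45 to 0.82), and Fcgr1 was 1.47-fold higher, with a log2 difference of 0.56 (0.42 to 0.70). The differences were 0.29 for Fcgr2b, 0.32 for Fcgr3, 0.22 for Fcer1g, 0.13 for Tyrobp and 0.39 for Syk (log2). Trem2 was not called, with a log2 difference of 0.09 and a 95% interval of -0.12 to 0.29 (limma adjusted p = 0.554). The Tyrobp call (limma adjusted p = 0.0143) was lost without OP9-GFP replicate 2 (limma adjusted p = 0.0631) and without the intensity trend (limma adjusted p = 0.138), while median centring gave a difference of 0.22. The Syk call was lost with the mean of its probe sets, which gave a difference of 0.18 (limma adjusted p = 0.105). The order of the group means was thus OP9-DL1 lowest, OP9-GFP between and OP9-DL1+CompoundE highest for every gene, with the upper pair not separated for Trem2. The 3 comparisons share arrays and are not independent of each other.

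Differences of 2-fold or more were limited to Fcgr1 and Trem2 between OP9-DL1 and OP9-GFP, a size and direction shown by 2.76% of all genes, and to Fcgr1, Trem2, Fcgr3 and Fcgr4 between OP9-DL1+CompoundE and OP9-DL1, shown by 4.47%. None of the 8 reached it between OP9-DL1+CompoundE and OP9-GFP by limma. Only 0.605% of all genes did so upward, so this absence does not set the 8 apart.

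The unequal size of the changes was measured array by array, as each gene's log2 level minus that of the inhibitory receptor Fcgr2b. Fcgr1 relative to Fcgr2b averaged -3.80 ± 0.06 on OP9-DL1 and -1.09 ± 0.05 on OP9-GFP (SD, n = 3 each), a change of -2.71 (log2) between the high-affinity activating receptor and the inhibitory one. Trem2 relative to Fcgr2b averaged -3.83 ± 0.20 on OP9-DL1 and -0.86 ± 0.04 on OP9-GFP (SD, n = 3 each). Fcgr3 shifted by -0.18 relative to Fcgr2b, with no overlap, and Fcgr4 by 0.05, with overlap. The signalling genes moved the other way: relative to Fcgr2b, OP9-DL1 exceeded OP9-GFP by 0.14 for Fcer1g, 0.18 for Tyrobp and 0.39 for Syk (log2), each without overlap. With Compound E against OP9-DL1, the same relative values changed by 2.98 for Fcgr1, 2.77 for Trem2, 0.21 for Fcgr3, 0.29 for Fcgr4, -0.21 for Fcer1g, -0.35 for Tyrobp and -0.29 for Syk, all without overlap. All these values use the brightest Fcgr2b probe set. Its other bright probe sets differed by -0.75, -0.90 and -0.99 between OP9-DL1 and OP9-GFP, against -0.84 for Fcgr3. With Compound E against OP9-DL1 they differed by 1.05, 1.18 and 1.22, against 1.17 for Fcgr3. The sign of the small Fcgr3 shift thus depends on the Fcgr2b probe set used. Between 2 groups of 3 arrays the two-sided exact permutation test cannot give a p below 0.10, and 17 of the 21 relative differences reached that value (adjusted p = 0.124 by exact permutation over the 21), so none can pass 0.05.

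**Figure D3:**
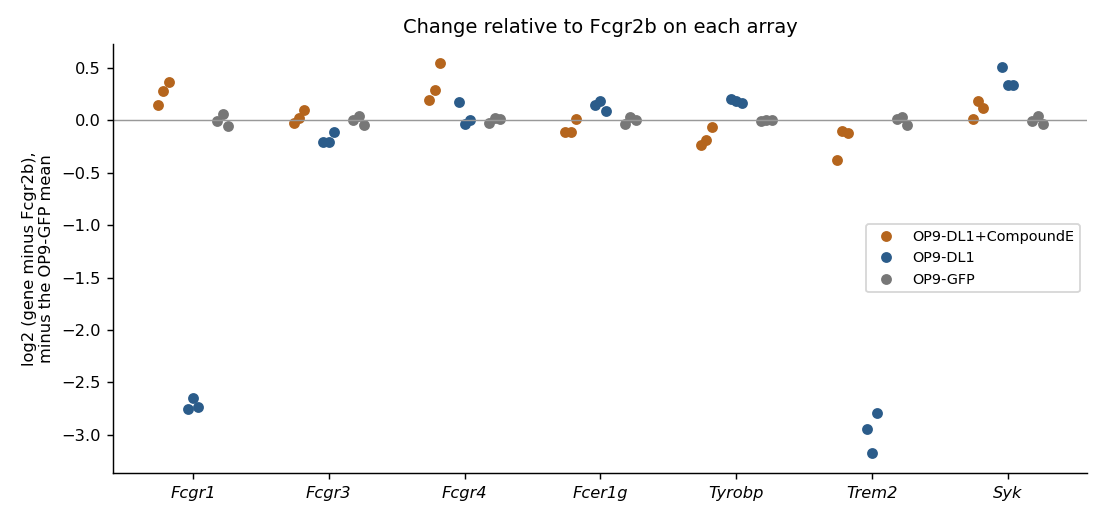
Log2 level of each gene minus that of Fcgr2b on the same array, by group, with the OP9-GFP mean of that value subtracted. Each point is an array. OP9-DL1 minus OP9-GFP is -2.71 for Fcgr1 and -2.97 for Trem2, while Fcer1g, Tyrobp and Syk are higher there by 0.14 to 0.39.

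All 17 probe sets were then counted, the brightest ones included. In limma over all 45037 probe sets that are not array controls, 13 of 17 were lower on OP9-DL1 than on OP9-GFP, where 12.8% of all probe sets were. With Compound E, 15 of 17 were higher than on OP9-DL1, where 19.1% of all were, and 12 of 17 were higher than on OP9-GFP, where 8.24% were. The brightest probe sets made up 8, 8 and 7 of these counts, so the counts do not measure the other probe sets alone. The second Fcgr1 probe set had differences of -1.98 for OP9-DL1 minus OP9-GFP and 2.72 for OP9-DL1+CompoundE minus OP9-DL1 (log2). For Fcgr2b, the 3 other bright probe sets had differences of -0.75, -0.90 and -0.99 in the first comparison and 1.05, 1.18 and 1.22 in the second, and the remaining one was at background in every group. The dim second Trem2 probe set had means of 4.71 on OP9-DL1+CompoundE, 4.21 on OP9-DL1 and 4.15 on OP9-GFP, and its difference between OP9-DL1 and OP9-GFP was 0.06 (limma adjusted p = 0.874). It was called higher with Compound E than on OP9-DL1, by 0.50 (log2, limma adjusted p = 0.0445). Against OP9-GFP it was called higher by 0.57 (log2, limma adjusted p = 0.0463), where the brightest Trem2 probe set was not called. The probe sets of Syk split: another bright one had differences of -0.29 and 0.75, both called, and the dimmer pair had -0.21 and -0.01 in one case and -0.38 and 0.47 in the other, of which only 0.47 was called. Fcgr2b and Fcgr3 are close relatives in sequence, and whether their probes bind both transcripts was not tested.

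**Figure D4:**
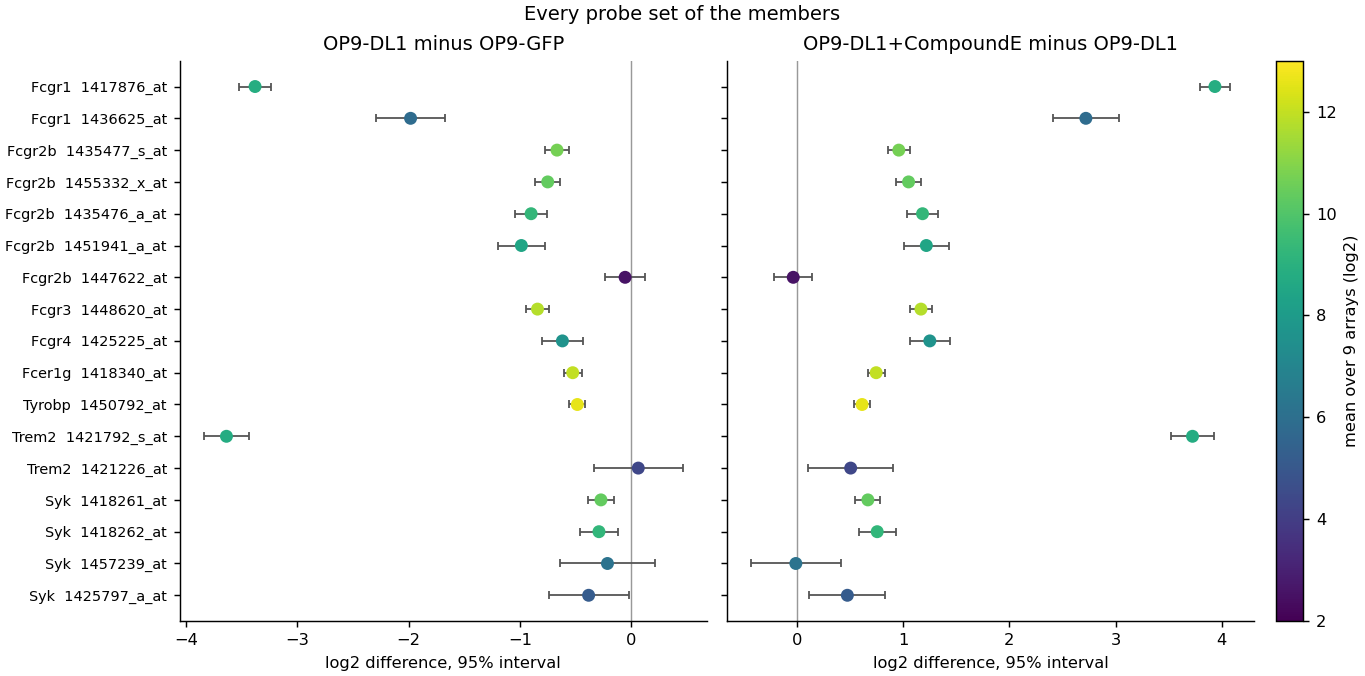
Log2 difference of each of the 17 probe sets, with its 95% interval, for OP9-DL1 minus OP9-GFP (left) and OP9-DL1+CompoundE minus OP9-DL1 (right), coloured by the mean level over the 9 arrays. The Trem2 probe set with a mean near 4 to 5 and the Fcgr2b probe set at background lie near 0 on the left, where the brighter ones of both genes are negative.

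Promoter sequence was set beside these changes because the genes moved together. Entries in the RefSeq table (GRCm38.p6) were found for 7 of the 8 genes, Tyrobp having none there, with 9 start sites, and the 250 bases before each start were searched on both strands for 3 motifs. These were GAGGAA, a core recognised by PU.1, the Ets-family factor of myeloid cells; TTCNNNGAA, the element bound by STAT factors; and TGGGAA, the core bound by RBPJ, the DNA-binding partner of Notch. The windows shown are those of Fcgr1 and Trem2, which changed most, and of Fcgr3, Fcgr4 and Fcgr2b as the other antibody receptors, each written 5′ to 3′ along the strand of the gene and with motif matches in capitals. TTCCTC is GAGGAA read on the other strand. They lie at chr3:96293970-96294219 on the minus strand for Fcgr1, chr17:48346151-48346400 on the plus strand for Trem2, chr1:171059395-171059644 on the minus strand for Fcgr3, chr1:171018676-171018925 on the plus strand for Fcgr4 and chr1:170976072-170976321 on the minus strand for Fcgr2b.
Fcgr1: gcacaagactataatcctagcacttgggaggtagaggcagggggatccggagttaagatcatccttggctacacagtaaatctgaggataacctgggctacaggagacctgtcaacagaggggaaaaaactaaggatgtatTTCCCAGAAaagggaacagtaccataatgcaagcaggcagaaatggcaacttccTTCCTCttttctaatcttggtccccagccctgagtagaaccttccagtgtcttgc
Trem2: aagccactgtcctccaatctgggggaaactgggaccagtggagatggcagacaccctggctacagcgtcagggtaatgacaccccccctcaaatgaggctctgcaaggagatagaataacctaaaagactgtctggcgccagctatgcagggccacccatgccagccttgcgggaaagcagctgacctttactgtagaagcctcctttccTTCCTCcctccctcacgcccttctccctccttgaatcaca
Fcgr3: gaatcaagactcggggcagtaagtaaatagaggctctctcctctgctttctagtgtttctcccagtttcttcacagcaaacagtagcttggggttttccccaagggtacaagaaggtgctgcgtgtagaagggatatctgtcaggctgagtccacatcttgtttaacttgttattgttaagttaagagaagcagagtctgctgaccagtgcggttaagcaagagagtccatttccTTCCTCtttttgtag
Fcgr4: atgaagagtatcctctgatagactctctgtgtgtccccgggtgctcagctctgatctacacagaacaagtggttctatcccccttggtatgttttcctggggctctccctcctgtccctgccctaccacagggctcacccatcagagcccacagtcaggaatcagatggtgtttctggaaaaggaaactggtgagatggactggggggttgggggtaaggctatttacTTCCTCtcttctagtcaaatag
Fcgr2b: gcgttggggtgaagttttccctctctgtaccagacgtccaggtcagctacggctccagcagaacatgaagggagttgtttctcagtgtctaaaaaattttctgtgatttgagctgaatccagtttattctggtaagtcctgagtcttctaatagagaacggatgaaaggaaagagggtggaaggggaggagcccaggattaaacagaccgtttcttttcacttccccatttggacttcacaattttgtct
The PU.1 core stood in 6 of the 9 windows, where 23.3% of 32851 promoter windows of the same length held it. These windows belong to 5 of the 7 genes, namely Fcgr1, Fcgr3 with both starts, Fcgr4, Trem2 and the second start of Syk. The windows of the Fcgr3 starts overlap and hold the same match. It lay 55 bases before the start in Fcgr1, 40 in Trem2, 15 in Fcgr3 and 22 in Fcgr4. The STAT element was found in 1 of the 9 windows, that of Fcgr1, against 7.02% of all windows. The RBPJ core was also found only there, against 21.6%. Those matches overlap in the Fcgr1 window and both lie 109 bases before the start. These are matches of letters and do not show binding. The windows of Fcgr2b, Fcer1g and the first start of Syk held no match to any of the 3 motifs.

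Neighbouring genes on the chromosomes were examined by their order in the RefSeq table. Fcgr2b, Fcgr4 and Fcgr3 follow each other on chromosome 1. Of 29 measured genes within 3 places of any of the 8, 4 were lower and 6 higher on OP9-DL1 than on OP9-GFP in limma. Over all genes, 16.7% were lower and 15.9% higher. With Compound E against OP9-DL1, 9 of the 29 were higher and 6 lower, where 25.1% of all genes were higher and 21.6% lower. The neighbour counts lie near these shares. The next genes were chosen after their values were seen. Treml1, a receptor of platelets and megakaryocytes beside Trem2, averaged 8.35 on OP9-DL1+CompoundE, 10.67 on OP9-DL1 and 9.06 on OP9-GFP, opposite in direction to Trem2. Treml2 differed by 0.62 and Treml4 by 1.32 (log2) between OP9-DL1 and OP9-GFP. Hcst, the adaptor DAP10 beside Tyrobp, averaged 7.31 on OP9-DL1+CompoundE, 7.47 on OP9-DL1 and 7.28 on OP9-GFP and was not called.

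Other receptors that signal through the same adaptors or through an ITAM-like motif of their own split in direction. Of 17 measured, 10 were lower and 5 higher on OP9-DL1 than on OP9-GFP, with a median log2 difference of -0.85, and 11 were higher and 4 lower with Compound E than on OP9-DL1, with a median of 0.56. Over all genes, 16.7% were lower and 15.9% higher on OP9-DL1 than on OP9-GFP. With Compound E against OP9-DL1, 25.1% of all genes were higher and 21.6% lower. The same shares stand beside the counts of the other lists below, which were also chosen with earlier results of these data known. Cd300lb, an activating receptor that pairs with DAP12, averaged 10.56 on OP9-DL1+CompoundE, 8.38 on OP9-DL1 and 10.40 on OP9-GFP. Clec4d, a C-type lectin that pairs with the Fcer1g chain, averaged 12.66 on OP9-DL1+CompoundE, 11.30 on OP9-DL1 and 12.57 on OP9-GFP. Sirpb1a, another DAP12 partner, averaged 10.55 on OP9-DL1+CompoundE, 7.34 on OP9-DL1 and 9.23 on OP9-GFP. Clec1b, a Syk-coupled receptor of platelets and megakaryocytes, went the other way, with 9.42 on OP9-DL1+CompoundE, 11.66 on OP9-DL1 and 9.91 on OP9-GFP.

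Among 10 measured receptors for antibody outside the Fc gamma family, 3 were lower and 2 higher on OP9-DL1 than on OP9-GFP, and 5 were at background in every group. Fcamr, called lower, was among those at background. With Compound E against OP9-DL1, 6 were higher and 1 lower, and the higher ones included Fcer2a, Fcamr and Pigr, all at background in every group. Fcgrt, the neonatal Fc receptor that recycles immunoglobulin G, averaged 8.78 on OP9-DL1+CompoundE, 7.84 on OP9-DL1 and 8.84 on OP9-GFP. Fcrls, an Fc receptor-like gene, differed by -2.55 between OP9-DL1 and OP9-GFP and by 2.01 between OP9-DL1+CompoundE and OP9-DL1 (log2). Fcer1a, the ligand-binding chain of the mast cell and basophil receptor for immunoglobulin E, which also uses the Fcer1g chain, was higher on OP9-DL1 than on OP9-GFP by 0.40 and lower with Compound E than on OP9-DL1 by a difference of -2.76 (log2).

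Other ITAM-bearing chains, with the adaptor Hcst and the kinase Zap70, did not follow Fcer1g and Tyrobp as a group. Of 9 measured, 3 were higher and 1 lower on OP9-DL1 than on OP9-GFP, and 2 were higher and 3 lower with Compound E than on OP9-DL1. Ms4a2, the β chain of the immunoglobulin E receptor, averaged 6.23 on OP9-DL1+CompoundE, 8.93 on OP9-DL1 and 7.85 on OP9-GFP. Cd79b, a B cell receptor chain, averaged 8.19 on OP9-DL1+CompoundE, 7.90 on OP9-DL1 and 8.71 on OP9-GFP. Cd3g, a T cell receptor chain, averaged 4.31 on OP9-DL1, with a range of 3.81 to 5.11, and was at background in both other groups. Cd3e was called but lay at background in every group.

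Kinases and effectors around Syk were mixed too. Of 25 measured, 12 were lower and 6 higher on OP9-DL1 than on OP9-GFP, with a median of -0.09, and 14 were higher and 6 lower with Compound E than on OP9-DL1, with a median of 0.23 (log2). Lat, the membrane adaptor best known from T cells, platelets and mast cells, averaged 6.36 on OP9-DL1+CompoundE, 9.23 on OP9-DL1 and 6.90 on OP9-GFP. Plcg1, a phospholipase C that produces calcium signals, differed by 1.09 between OP9-DL1 and OP9-GFP and by -1.35 between OP9-DL1+CompoundE and OP9-DL1, and by 0.44 and -0.40 as the mean of its probe sets (log2). Sh3bp2, an adaptor that binds Syk, moved with the Fc receptors, at 9.75 on OP9-DL1+CompoundE, 7.75 on OP9-DL1 and 9.09 on OP9-GFP. Fgr, a Src-family kinase of myeloid cells chosen after its values were seen, averaged 9.98 on OP9-DL1+CompoundE, 7.68 on OP9-DL1 and 8.48 on OP9-GFP.

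Of 14 measured inhibitory receptors with ITIMs other than Fcgr2b, 9 were lower and 4 higher on OP9-DL1 than on OP9-GFP, with a median log2 difference of -0.47. With Compound E against OP9-DL1, 9 were higher and 5 lower, with a median of 0.85. Pirb, a myeloid and B cell receptor for class I molecules, averaged 11.24 on OP9-DL1+CompoundE, 8.21 on OP9-DL1 and 10.18 on OP9-GFP. Clec4a2, an inhibitory lectin of myeloid cells, differed by -1.45 between OP9-DL1 and OP9-GFP and by 1.84 between OP9-DL1+CompoundE and OP9-DL1 (log2). Cd300lf, an inhibitory receptor of myeloid cells, averaged 9.95 on OP9-DL1+CompoundE, 8.09 on OP9-DL1 and 9.09 on OP9-GFP. Cd22, best known as an inhibitory receptor of B cells, averaged 4.17 on OP9-DL1+CompoundE, 7.75 on OP9-DL1 and 4.14 on OP9-GFP.

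Enzymes and adaptors that limit ITAM signals were evenly split, with 6 lower and 7 higher of 16 on OP9-DL1 against OP9-GFP, and 8 higher and 7 lower with Compound E against OP9-DL1. Dok3, an inhibitory adaptor, differed by -0.85 and 1.52 in these comparisons (log2). Cblb, a ubiquitin ligase, differed by 0.90 and -0.74, Ubash3a and Ubash3b, phosphatases of the Sts family, by 1.10 and -1.69 and by 0.76 and -0.61, and Sla, an adaptor that lowers receptor levels, by 0.48 and -0.48. Inpp5d, the lipid phosphatase SHIP-1 that Fcgr2b recruits, was chosen after its values were seen and averaged 10.70 on OP9-DL1+CompoundE, 10.35 on OP9-DL1 and 10.92 on OP9-GFP.

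Genes whose level is linked to Trem2 in mouse microglia were considered last. Of 16 measured, 9 were lower and 5 higher on OP9-DL1 than on OP9-GFP, with a median of -0.50, and 8 were higher and 6 lower with Compound E than on OP9-DL1, with a median of 0.54 (log2). Gpnmb, a membrane glycoprotein of macrophages, averaged 11.17 on OP9-DL1+CompoundE, 6.58 on OP9-DL1 and 11.14 on OP9-GFP. Lgals3, the lectin galectin-3, averaged 12.58 on OP9-DL1+CompoundE, 9.98 on OP9-DL1 and 12.34 on OP9-GFP. Itgax, an integrin chain of dendritic cells and some macrophages, ran opposite to Trem2, with 5.05 on OP9-DL1+CompoundE, 8.86 on OP9-DL1 and 4.82 on OP9-GFP.

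**Figure D5:**
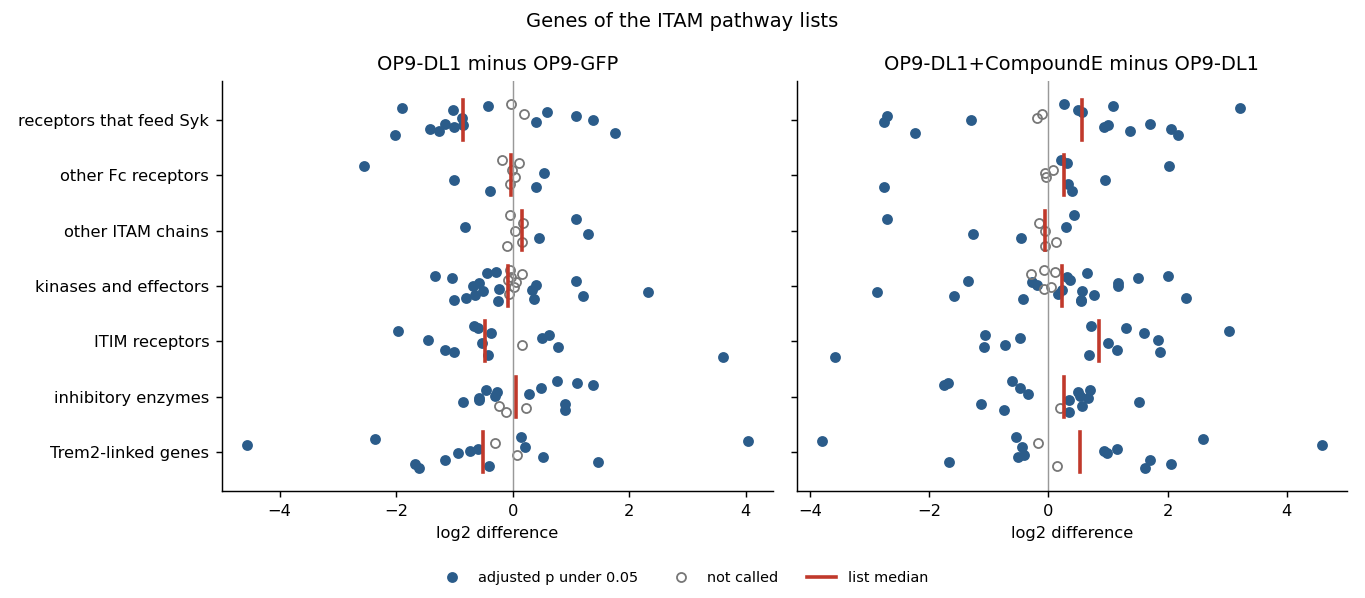
Log2 differences of the measured genes of the 7 pathway lists for OP9-DL1 minus OP9-GFP (left) and OP9-DL1+CompoundE minus OP9-DL1 (right); filled points passed an adjusted p of 0.05 in limma, open ones did not, and red lines are list medians. Every list holds genes on both sides of 0, with medians of -0.85 to 0.16 on the left and -0.06 to 0.85 on the right.

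Against OP9-GFP, cultures with Compound E had 7 higher and 5 lower among the 17 receptors that feed Syk, 11 higher and 6 lower among the 25 kinases and effectors, 7 higher and 2 lower among the 14 ITIM receptors, 7 higher and 2 lower among the 16 inhibitory enzymes and adaptors, 2 higher and 2 lower among the 10 other antibody receptors, none higher and 2 lower among the 9 other ITAM chains, and 5 higher and 5 lower among the 16 Trem2-linked genes, where 12.1% of all genes were higher and 10.6% lower. Pirb and Sirpb1a were higher with Compound E than on OP9-GFP by 1.07 and 1.32, and Fcer1a and Ms4a2 differed by -2.36 and -1.62 (log2).

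Markers of the cell types that carry these genes moved as well. For the marker counts below, the shares over all genes were 16.7% lower and 15.9% higher on OP9-DL1 than on OP9-GFP. With Compound E against OP9-DL1 they were 25.1% higher and 21.6% lower. Of 17 measured monocyte and macrophage markers, 13 were lower and none higher on OP9-DL1 than on OP9-GFP in limma, with a median log2 difference of -1.42, and 11 were higher and none lower with Compound E than on OP9-DL1. Their summed linear level was 33623 to 35035 on the OP9-DL1+CompoundE arrays, 14853 to 15509 on the OP9-DL1 arrays and 30939 to 32468 on the OP9-GFP arrays. Marco, Vsig4 and C1qa, markers of tissue macrophages, were at background in every group, but other such markers were not. C1qb averaged 6.79 on OP9-DL1+CompoundE, 7.01 on OP9-DL1 and 9.36 on OP9-GFP, and C1qc averaged 4.18, 4.55 and 6.81 in the same groups. Neither was called between OP9-DL1+CompoundE and OP9-DL1. Mrc1, the mannose receptor, averaged 8.49 on OP9-DL1+CompoundE, 6.11 on OP9-DL1 and 9.70 on OP9-GFP, and Mertk, a receptor for dying cells, averaged 5.49, 5.09 and 6.51 in the same groups. The sum was 2.07-fold lower on OP9-DL1 than on OP9-GFP and 2.27-fold higher with Compound E than on OP9-DL1. Lyz2, the brightest marker of the list, weighs most in this linear sum and differed by -0.42 (log2) between OP9-DL1 and OP9-GFP. Mrc1 and the scavenger receptor Msr1 differed by -3.59 and -3.50 there, as much as Fcgr1 and Trem2. Values relative to the sum therefore depend on how the markers are weighted. Relative to that sum, a measure chosen after values were seen, OP9-DL1 minus OP9-GFP was -2.33 for Fcgr1 and -2.59 for Trem2, and it was 0.21 for Fcgr3, 0.38 for Fcgr2b, 0.43 for Fcgr4, 0.53 for Fcer1g, 0.57 for Tyrobp and 0.78 for Syk (log2). On the same measure OP9-DL1+CompoundE minus OP9-DL1 was 2.75 for Fcgr1 and 2.54 for Trem2, -0.01 for Fcgr3, 0.07 for Fcgr4, -0.22 for Fcgr2b, -0.44 for Fcer1g, -0.57 for Tyrobp and -0.51 for Syk (log2), with no test of these. On this measure the OP9-DL1 and OP9-GFP arrays did not overlap for any of the 8, at the smallest p that the exact permutation test allows here, 0.10. The part of the macrophage markers in the changes of the 8 genes was not tested.

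Of 11 mast cell and basophil markers, cells that use Fcer1g and Syk, 7 were higher and 1 lower on OP9-DL1 than on OP9-GFP, and 8 were lower and none higher with Compound E than on OP9-DL1. Their sum was 2676 to 2860 on OP9-DL1+CompoundE, 10291 to 10557 on OP9-DL1 and 5275 to 5433 on OP9-GFP, with Tpsab1 at background in every group. Gata2, the brightest of them on OP9-DL1, averaged 9.15 on OP9-DL1+CompoundE, 11.87 on OP9-DL1 and 10.05 on OP9-GFP. Kit, which is also in the LSK list, averaged 8.14, 10.22 and 8.94 in the same groups. Between OP9-DL1 and OP9-GFP, Tpsb2 was the 1 marker called lower, and Tpsab1, Cma1 and Mcpt8 were not called. Megakaryocyte and platelet markers, cells that use Syk with Clec1b and Gp6, were higher for 10 of 10 on OP9-DL1 than on OP9-GFP and lower for 10 of 10 with Compound E than on OP9-DL1. Their sum was 5976 to 6196 on OP9-DL1+CompoundE, 21113 to 21277 on OP9-DL1 and 8269 to 8411 on OP9-GFP. All 10 megakaryocyte markers and 7 of the mast cell markers were thus called in the direction opposite to the 8 genes on OP9-DL1.

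Granulocyte markers were higher for 7 and lower for 5 of 12 on OP9-DL1 against OP9-GFP, with sums of 43077 to 43787 on OP9-DL1+CompoundE, 49466 to 50784 on OP9-DL1 and 40918 to 41359 on OP9-GFP. Over all genes, 15.9% were higher and 16.7% lower in this comparison, which is also that of the counts below. Natural killer cell markers were higher for 2 and lower for 2 of 9, with sums of 975 to 1113 on OP9-DL1+CompoundE, 3834 to 4042 on OP9-DL1 and 1565 to 1638 on OP9-GFP, and their defining genes Ncr1 and Eomes were at background in every group. The brightest gene of that list, Nkg7, also found in other cytotoxic cells, averaged 9.30 on OP9-DL1+CompoundE, 11.72 on OP9-DL1 and 9.93 on OP9-GFP. Klrd1 averaged 5.82, 7.28 and 7.87 and Klrk1 4.34, 4.54 and 5.41 in the same groups, so that both were lower on OP9-DL1 than on OP9-GFP. B lineage markers were higher for 1 and lower for 2 of 9, with sums of 740 to 832 on OP9-DL1+CompoundE, 997 to 1105 on OP9-DL1 and 923 to 934 on OP9-GFP, and Pax5 and Ms4a1 were at background in every group. Dendritic cell markers were higher for 4 and lower for 4 of 11, with sums of 4799 to 5103 on OP9-DL1+CompoundE, 4776 to 4937 on OP9-DL1 and 5051 to 5249 on OP9-GFP, and Xcr1 was at background in every group. Cd74, the brightest gene of that list, averaged 11.89, 11.44 and 11.84 in the same groups and weighs most in these sums. Ccr7 averaged 7.52 on OP9-DL1 and was at background in both other groups, while Flt3 averaged 7.56 on OP9-DL1+CompoundE, 6.50 on OP9-DL1 and 8.01 on OP9-GFP. Stromal markers of the feeder were higher for 11 of 14, with sums of 13337 to 13453 on OP9-DL1+CompoundE, 22620 to 22954 on OP9-DL1 and 13362 to 13560 on OP9-GFP, and Lum and Dcn were at background in every group. LSK markers were higher for 6 and lower for 4 of 10, with sums of 5448 to 5811 on OP9-DL1+CompoundE, 6604 to 6932 on OP9-DL1 and 6495 to 6691 on OP9-GFP. Some genes stand in more than 1 list, such as Fcer1a and Ms4a2 among mast cell markers and Itgax among dendritic cell markers. The part of these cell types in the changes of the 8 genes was not tested.

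The likeness of profiles was described by the root mean square distance between 9-array profiles, each centred on its own mean, with the same 9 arrays behind every value. Among the 8 genes, Fcer1g and Tyrobp were nearest to each other at 0.06 (log2). Fcgr1 and Trem2 were 0.23 apart and lay 1.26 to 1.52 from each of the other 6, which were 0.06 to 0.28 from one another. Over all other genes, the nearest to Fcgr1 were Msr1, a macrophage scavenger receptor that is also in the macrophage list, at 0.09 and Ptpro, a receptor phosphatase, at 0.11. The nearest to Trem2 were Olfm1 at 0.16 and Ifi27l2a, an interferon-induced gene, at 0.18. Those nearest to the remaining genes were Ccdc71l and Prex1 for Fcgr2b, Rufy1 and Idh2 for Fcgr3, Lamc1 and Rab20 for Fcgr4, Hp and Washc5 for Fcer1g, Il17ra and Anxa2 for Tyrobp, and Nck1 and Dhx8 for Syk, at 0.03 to 0.08.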

How the data were processed

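RNA (25 ng per sample, amplified and biotin-labelled per the labels' protocols) from 9 samples was measured on single-colour oligonucleotide arrays. The authors deposited log2 values, 1 for each probe set on each array. MAS5 and GCRMA 2.4.1 are listed in the submitters' processing notes without their role, and detection calls were not used here. How the processing affects folds against dim levels was not tested.

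The array has 45101 probe sets, among them 64 controls. The supplied annotation gave 34945 a single symbol, 932 several and 9160 none, and 34741 symbols were brought up to date by Entrez ID. The probe set with the highest mean stood for each of 18193 genes. Background was judged by 27 bacterial control probe sets (2.24 to 3.64). Log2 values were tested without further normalization or filter with limma 3.58.1 under R 4.3.3 (lmFit, then eBayes including an intensity trend), fitting all 9 arrays, with Benjamini-Hochberg adjustment and a threshold of 0.05. The procedure was tested on simulated data. Differences to Fcgr2b were tested by two-sided exact permutation. Depth has no counterpart on an array.

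Sample titles gave the groups and replicate numbers. The members and lists were chosen with earlier results of these data known. All 8 genes are named, and from each pathway list up to 3 genes by lowest p, separately for OP9-DL1 against OP9-GFP and OP9-DL1+CompoundE against OP9-DL1. For each member the 2 nearest genes were added, by the root mean square distance between centred profiles. Other genes are said to be chosen after their values were seen, or are named as list markers.

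Alternatives were log2(value + 32), quantile normalization, median centring, filters on dim genes and on genes with equal values, the mean of probe sets, no intensity trend, a replicate block, a fit to the 6 compared arrays, each array left out, a 2-fold threshold and all probe sets. Promoter sequences are RefSeq's (GRCm38.p6).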

Additional observations from a re-analysis of the deposited data

How the results depend on the processing

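No difference of the 8 genes changed direction where it was called, and 475 of 495 recomputed differences kept their side of the threshold. Of the 20 that did not, 17 followed from asking for at least 2-fold, where 2, 4 and 0 of the 8 were called in OP9-DL1 against OP9-GFP, OP9-DL1+CompoundE against OP9-DL1 and OP9-DL1+CompoundE against OP9-GFP, and 75, 82 and 21 of the list genes. The differences below 2-fold were, in the first comparison, -0.67 for Fcgr2b, -0.84 for Fcgr3, -0.62 for Fcgr4, -0.53 for Fcer1g, -0.48 for Tyrobp and -0.27 for Syk. In the second they were 0.96 for Fcgr2b, 0.74 for Fcer1g, 0.61 for Tyrobp and 0.67 for Syk. In the third they were 0.56 for Fcgr1, 0.29 for Fcgr2b, 0.32 for Fcgr3, 0.63 for Fcgr4, 0.22 for Fcer1g, 0.13 for Tyrobp and 0.39 for Syk (log2). The other 3 concerned the third comparison: Syk was 0.18 with the mean of its probe sets, and Tyrobp was 0.13 without the intensity trend and 0.11 to 0.14 when each array was left out, losing its call without OP9-GFP replicate 2. Leaving out genes with equal values on arrays of a group removed Fcgr4, Fcer1g and Syk, so that 5, 5 and 4 of the 8 were called. Among the other named genes, Cblb was -0.19 and Plcg1 was 0.039 in the third comparison with the mean of probe sets, opposite in sign to their brightest probe set; the cause was not tested. Of 1596 recomputed differences of these genes 1539 kept their side. With the replicate number as a block, 8, 8 and 7 of the 8 were called, as without it, and no call of the 8 changed. Same-numbered arrays did not deviate together (9 correlations of -0.11 to 0.12, 2 of them over 0.1), so the numbers were not taken as pairs. Signal near background limits the Fcgr2b probe set at background and the dim Trem2 probe set.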
